A study of Mus musculus with 40 samples.

Results

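The 9 genes described here encode factors of the macrophage lineage and receptors found on macrophages. They were taken as a list of gene names, with no threshold on a measured value but with earlier results of these data known. They are the receptors Csf1r (ENSMUSG00000024621), Adgre1 (ENSMUSG00000004730), Mertk (ENSMUSG00000014361) and Axl (ENSMUSG00000002602), and the transcription factors Spi1 (ENSMUSG00000002111), Maf (ENSMUSG00000055435), Cebpa (ENSMUSG00000034957), Cebpb (ENSMUSG00000056501) and Zeb2 (ENSMUSG00000026872). Each matched 1 of the 57010 gene identifiers in the table, of which 52029 were paired with a symbol. All 9 passed the filter on low counts in every comparison.

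RNA came from primary macrophages that had been grown out of mouse bone marrow with L929-conditioned medium, which supplies M-CSF, and was counted by tags taken near the 3′ ends of polyadenylated transcripts. Cells labelled OtulinFL/FL, which carry the floxed gene and no Cre, are called WT here, and cells labelled OtulinFL/FL LysMCreTg/WT, in which the LysM promoter drives Cre recombinase in myeloid cells, are called KO. Both genotypes were sampled without lipopolysaccharide (LPS, a bacterial cell wall component sensed by TLR4) at 0 h and after 3, 6, 12 and 24 h with 500 ng/ml ultrapure LPS of Salmonella minnesota. The design gives 4 biological replicates for each genotype, hence 40 libraries in 10 groups of 4. Every group carries the floxed Otulin allele, and no group carries Cre without it, so loss of Otulin and presence of Cre cannot be told apart. No untreated cells were sampled after 0 h, so exposure to LPS and time in culture cannot be told apart either.

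Macrophages depend on signalling through CSF1R, the receptor for M-CSF and IL-34. The ETS factor PU.1 (from Spi1) opens many macrophage enhancers, together with C/EBP factors, and MAF and ZEB2 help to keep the differentiated state. Adgre1 encodes F4/80, a surface protein used to recognise mouse macrophages, while MERTK and AXL belong to the TAM family of receptor kinases. The ligands of the family as a whole are GAS6 and protein S on dying cells, and its receptors restrain inflammatory signalling. Not every receptor of the family need bind both ligands.

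Library totals ran from 3615155 to 6829303 counts. Levels are given in CPM, the count divided by the scaled library total and set to a common total. Otulin itself was counted in every library. Its KO values lay below every WT value at 3 h (31.4 to 33.5 against 36.4 to 47.5 CPM) and 6 h (29.0 to 33.5 against 35.7 to 42.3 CPM), above every WT value at 24 h (45.2 to 51.7 against 27.6 to 37.1 CPM), and within an overlapping range at 0 h and 12 h. Tags at the end of a transcript still arise when an upstream exon is lost, which leaves the genotype unchecked by this count. Low Xist counts in all 5 libraries of KO 3 and of WT 4 marked these 2 as male, and the other 6 replicate numbers as female. Macrophage markers were high: of 10, 3 are members described here, and the other 7 each had a mean of at least 5 CPM and summed to 5647 to 9729 CPM per library. Neutrophil markers summed to 22.7 to 111 CPM, and 3 of 10 (S100a8, S100a9 and Csf3r) had a mean of at least 5 CPM. Their sum was lower in every KO library than in every WT library at 3 h (38.1 to 51.4 against 68.7 to 83.1 CPM), 6 h (61.7 to 87.0 against 93.0 to 104 CPM) and 24 h (57.5 to 63.2 against 72.8 to 78.6 CPM), and the ranges overlapped at 0 h and 12 h. The sum of 8 lymphoid markers, of which Ighm alone had a mean of at least 5 CPM, was 24.7 to 36.5 CPM at 0 h and 0.669 to 3.26 CPM at 24 h in WT, and 14.5 to 40.5 CPM and 1.16 to 3.33 CPM in KO. Of the red cell and platelet precursor markers, only Pf4 had a mean of at least 5 CPM, and it lay at 426 to 1097 CPM over the libraries. Pf4 was higher in every KO library (564 to 609 CPM) than in every WT library (426 to 541 CPM) at 24 h. Itga2b, another platelet marker of that list, reached at most 1.36 CPM, so Pf4 alone does not mark platelets here. The red cell markers Hba-a1 and Hbb-bs reached at most 0.762 and 1.27 CPM. Dendritic cell markers summed to 1.65 to 3.75 CPM in WT and 1.08 to 2.23 CPM in KO at 0 h, and to 14.3 to 20.9 CPM and 7.36 to 14.6 CPM at 24 h. Mast cell and stromal markers summed to at most 2.83 and 6.51 CPM. The part of these other signals in the results below was not tested. In bulk RNA, fewer cells of a type and less RNA per cell cannot be told apart.

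Most of the 9 genes differed from 0 h after LPS began in both genotypes, in 3 directions. Axl, Adgre1, Spi1, Cebpb and Zeb2 were higher than at 0 h at all 4 later times in WT and in KO. Cebpa was lower at all 4 times, by as much as 20.7-fold in WT and 27.4-fold in KO at 6 h. Maf was lower at 3 h, higher at 6 h and 12 h and lower again at 24 h, Mertk was higher from 6 h, and Csf1r moved by at most 1.15-fold. Over the 72 tests of a member against 0 h, 65 passed at an adjusted p under 0.05 by edgeR's quasi-likelihood test, and 58 of those passed under every alternative tried. All 8 calls of Axl, of Spi1, of Cebpa, of Cebpb and of Zeb2 were among the 58, with no adjusted p above 6.51e-04.

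In WT, 5 members rose and 3 fell at 3 h, where 26.6% of 12151 genes tested were called higher and 28.0% lower. At 6 h, 7 rose and 2 fell (31.0% and 37.1% of all genes), at 12 h 7 rose and 1 fell (32.3% and 35.9%), and at 24 h 6 rose and 3 fell (34.5% and 35.4%). In KO, 5 rose and 2 fell at 3 h (22.9% and 25.7% of 12037 genes), 7 rose and 1 fell at 6 h (28.7% and 36%) and at 12 h (30.7% and 34.0%), and 6 rose and 2 fell at 24 h (32.8% and 33.0%). Between 48.6% (KO at 3 h) and 69.9% (WT at 24 h) of genes tested were called in either direction, so the count of called members is read against these shares and not by itself. The members' median change in WT was 0.37, 0.73, 0.86 and 0.87 log2 at 3, 6, 12 and 24 h, beside −0.05, −0.09, −0.07 and −0.02 over all genes. In KO it was 0.31, 0.73, 1.06 and 0.98, beside −0.04, −0.11, −0.07 and −0.01. Since the members were chosen with earlier results of these data known, these medians describe the members and are not a test.

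**Figure D1:**
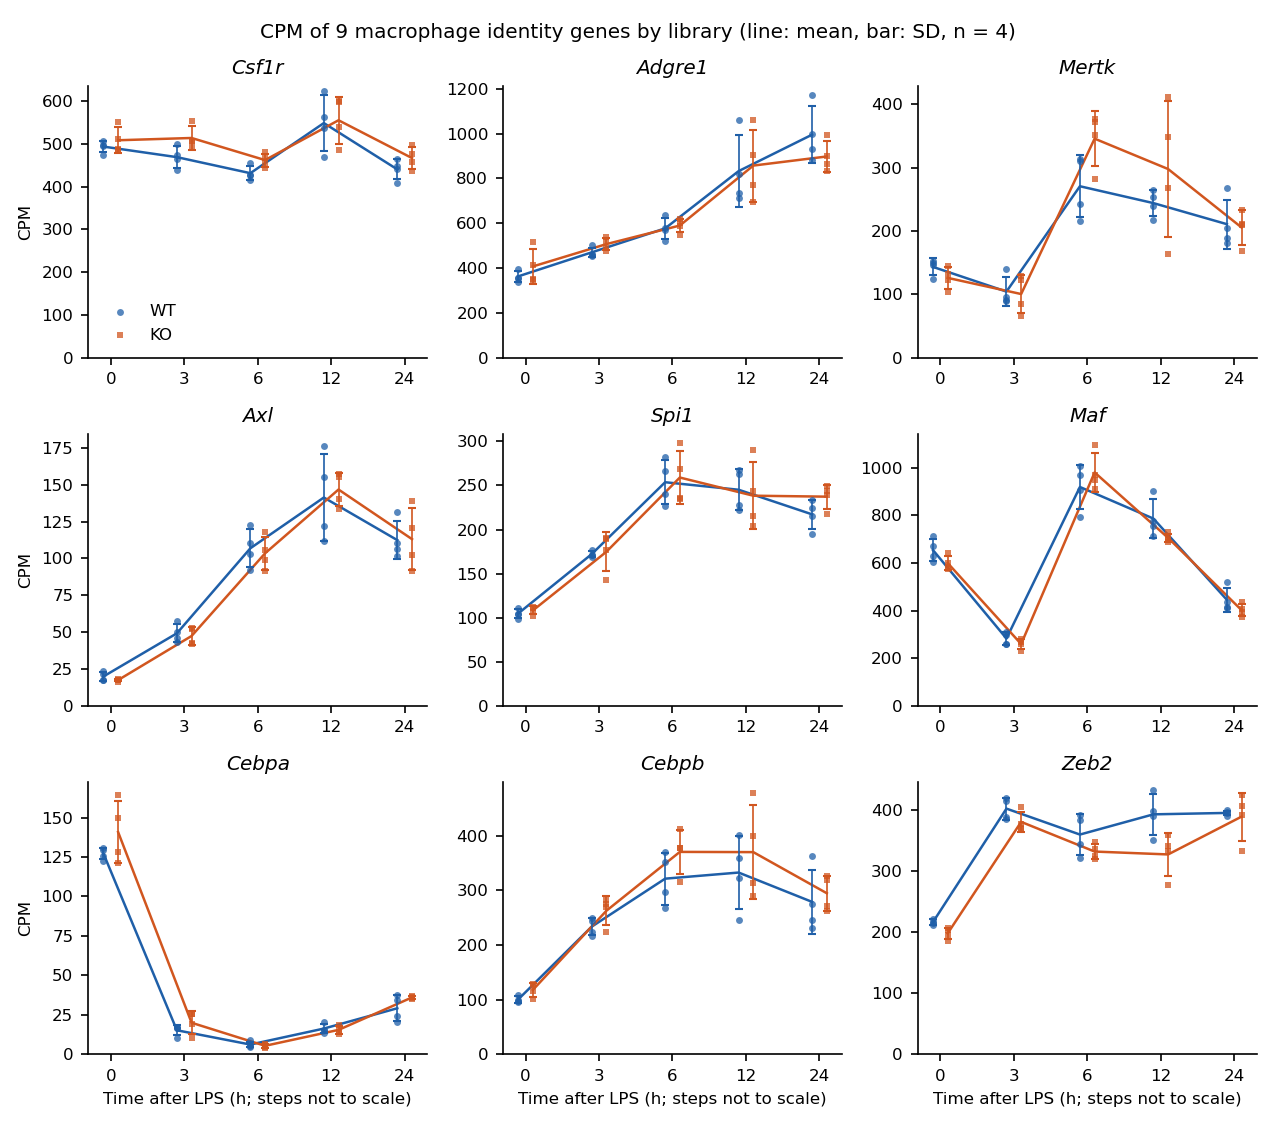
Levels of the 9 genes in CPM (vertical axes, from 0) in each of 40 libraries by hours after LPS (horizontal axes, equally spaced, not to scale), WT as blue circles and KO as orange squares, with lines through group means and bars of 1 SD (n = 4). The genotypes follow each other closely, Cebpa drops from 121 to 164 CPM in KO at 0 h to 4.14 to 6.31 CPM at 6 h, and Csf1r stays between 409 and 624 CPM in every library.

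**Figure D2:**
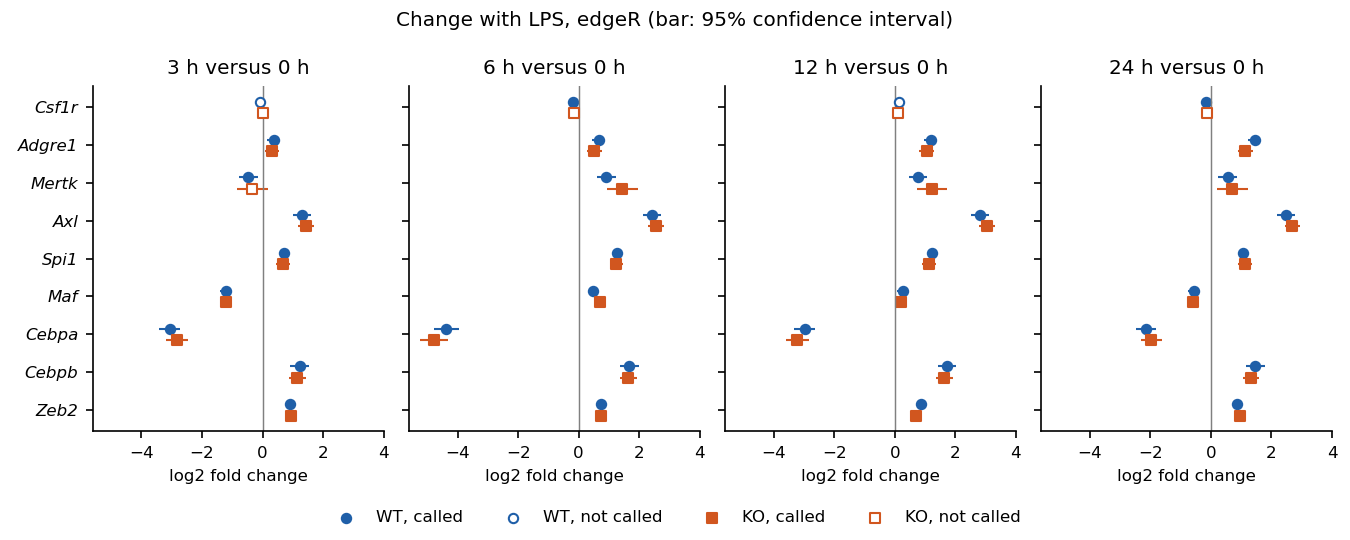
Log2 fold change against 0 h (horizontal axes) of each gene at 3, 6, 12 and 24 h of LPS, with 95% confidence intervals from edgeR, WT as circles and KO as squares, filled where the adjusted p was under 0.05. Cebpa lies far left at every time (−4.37 in WT and −4.77 in KO at 6 h), Axl far right (2.81 and 3.05 at 12 h) and Csf1r near 0.

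Csf1r, the M-CSF receptor, was the steadiest of the 9. The 4 WT libraries held 496, 507, 474 and 497 CPM at 0 h, 428, 455, 427 and 415 CPM at 6 h, and 464, 440.5, 409 and 447 CPM at 24 h. The 6 h and 24 h values all lay below the lowest one at 0 h. Csf1r differed by −0.20 ± 0.07 log2 at 6 h (SE, edgeR adjusted p = 0.018) and by −0.17 ± 0.07 at 24 h (adjusted p = 0.0443). Both calls were lost with another scaling of library totals (adjusted p = 0.114 and 0.123 with RLE size factors) and with DESeq2 (adjusted p = 0.0978 and 0.105). The 6 h call was also lost without WT 1, WT 2 or WT 4, and the 24 h call without any 1 of the 4 replicates (highest adjusted p = 0.277). At 3 h and 12 h the WT differences were −0.08 ± 0.07 (adjusted p = 0.394) and 0.15 ± 0.07 (adjusted p = 0.076). RLE scaling and DESeq2 called the 12 h value higher (adjusted p = 0.019 and 0.0107).

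In KO, Csf1r held 549.9, 510.3, 486 and 487 CPM at 0 h and 436, 476, 457 and 498 CPM at 24 h, and these ranges overlapped. The KO differences from 0 h were 0.00, −0.15, 0.11 and −0.12 log2 at 3, 6, 12 and 24 h, and 0 of 4 passed by edgeR (adjusted p from 0.0787 to 0.972). As in WT, DESeq2 called the 12 h value higher (adjusted p = 0.0348). The step from 6 h to 12 h passed in both genotypes, with 0.35 ± 0.07 log2 in WT (adjusted p = 3.71e-04) and 0.27 ± 0.08 in KO (adjusted p = 0.00645). Means at 12 h were 548 ± 64.7 CPM in WT and 555 ± 54.8 CPM in KO (SD, n = 4), the highest of the 5 times. The fall from 12 h to 24 h passed too, by 0.31 log2 in WT and 0.23 log2 in KO (adjusted p = 0.00128 and 0.018). In KO both steps were lost without KO 1 or without KO 3 (highest adjusted p = 0.144), and the second also without the filter on low counts (adjusted p = 0.122).

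Adgre1, which encodes F4/80, was higher than at 0 h at every later time. WT libraries held 357, 357, 339 and 398 CPM at 0 h, 464, 455, 459 and 501 CPM at 3 h, and 1171, 999, 882 and 930.0 CPM at 24 h. Every 24 h value exceeded 2 times the highest at 0 h. In WT the 0 h, 3 h, 6 h and 12 h ranges did not overlap with their neighbours, while 12 h (714 to 1063 CPM) and 24 h did. The rise against 0 h was 0.37 ± 0.10, 0.66 ± 0.10, 1.19 ± 0.10 and 1.45 ± 0.10 log2 (edgeR adjusted p = 0.0034, 3.01e-06, 1.4e-10 and 3.63e-12), or 2.74-fold at 24 h. KO libraries held 517, 351, 413 and 348 CPM at 0 h, where KO 1 stood well above the other 3, and 864, 899, 835 and 994 CPM at 24 h. The KO rise was 0.31 ± 0.12, 0.52 ± 0.12, 1.06 ± 0.12 and 1.14 ± 0.12 log2, 2.21-fold at 24 h (adjusted p = 7.08e-09). The 3 h call in KO (adjusted p = 0.0331) was lost without KO 2 or KO 4 (adjusted p = 0.194 and 0.0847).

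The ratio of Adgre1 to Csf1r counts within a library was highest at 24 h. Its mean went from −0.45 ± 0.08 log2 at 0 h to 1.17 ± 0.12 at 24 h in WT (SD, n = 4), a 3.07-fold shift, and from −0.34 ± 0.21 to 0.94 ± 0.06 in KO. The 4 ratios of 24 h ran from 1.06 to 1.34 in WT and lay above every ratio of 0 h. The 4 KO ratios of 24 h, 0.87 to 1.00, all lay below the WT ones, while the ranges of the genotypes overlapped at the other 4 times. Neither gene was called between genotypes at 24 h (edgeR adjusted p = 0.74 for Adgre1 and 0.85 for Csf1r). The Cebpb to Cebpa and Axl to Mertk ratios overlapped between genotypes at every time. How often other gene pairs separate was not counted, so this separation is not read as a genotype effect. Ratios between genes are described without a test.

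Mertk and Axl, a pair of TAM receptors, followed different courses. Their proximal promoter windows are shown because the pair changed unequally. They cover 250 bases before to 50 after a RefSeq transcript start, on GRCm38.p6, with matches to GGGCGG (GC box) or GAGGAA (the core bound by PU.1) on either strand in capitals. The Mertk window is chr2:128698665-128698964 on the plus strand and the Axl window chr7:25788684-25788983 on the minus strand.
Mertk: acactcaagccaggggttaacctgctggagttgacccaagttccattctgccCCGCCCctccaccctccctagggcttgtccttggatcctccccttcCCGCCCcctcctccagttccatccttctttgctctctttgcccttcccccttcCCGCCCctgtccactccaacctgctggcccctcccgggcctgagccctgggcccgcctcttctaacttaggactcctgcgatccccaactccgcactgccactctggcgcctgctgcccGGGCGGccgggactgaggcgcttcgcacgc
Axl: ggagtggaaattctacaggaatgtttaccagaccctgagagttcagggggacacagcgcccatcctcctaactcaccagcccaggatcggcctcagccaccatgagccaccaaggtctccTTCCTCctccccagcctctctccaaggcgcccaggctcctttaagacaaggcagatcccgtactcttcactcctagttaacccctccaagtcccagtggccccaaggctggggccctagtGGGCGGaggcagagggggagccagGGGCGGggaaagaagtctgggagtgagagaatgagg
The Mertk window held 4 GC boxes, 3 of them on the opposite strand, and no GAGGAA. In the Axl window there were 2 GC boxes, at −10 and 15 from the start, and 1 GAGGAA on the opposite strand at −130. Over 32851 RefSeq promoter windows of the same length, 35.7% held GGGCGG and 28.3% GAGGAA, so such matches are common. Neither window held the letters searched for C/EBP (TTGCNNAA, in 10.8% of windows), kappa B (GGGANNTTCC, 1.47%), AP-1 (TGACTCA, 5.2%), the interferon-stimulated element (GAAANNGAAA, 3.44%), the TATA box (TATAAA, 13.6%) or the E2 box bound by ZEB factors (CACCTG, 20.2%). A match describes letters in a window and is not evidence of binding.

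Mertk, the TAM receptor of dead cell uptake, held 147, 149.8, 124 and 153 CPM in the WT libraries at 0 h and 91.7, 89.8, 96.4 and 139 CPM at 3 h. WT 4 stayed inside the 0 h range and the other 3 lay below it. The difference of −0.47 ± 0.15 log2 passed (edgeR adjusted p = 0.0123), but was lost without WT 1 or WT 2 (adjusted p = 0.0862 and 0.104). At 6 h the WT libraries held 314, 217, 242 and 310.0 CPM, all above the 0 h range. The rise against 0 h was 0.91 ± 0.15 log2 at 6 h (1.88-fold, adjusted p = 1.41e-05), 0.76 ± 0.15 at 12 h and 0.55 ± 0.15 at 24 h (adjusted p = 0.00217).

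In KO, Mertk held 132, 123, 145 and 104 CPM at 0 h, 129, 84.7, 123 and 65.4 CPM at 3 h, and 376, 352, 373 and 282 CPM at 6 h. KO 4 was the lowest KO library at each of the 5 times, with 164 CPM at 12 h beside 267 to 412 CPM in the other 3. The KO rise was 1.44 ± 0.24 log2 at 6 h (2.72-fold, adjusted p = 3.93e-05), 1.23 ± 0.24 at 12 h and 0.71 ± 0.24 at 24 h (adjusted p = 0.0146). The 24 h call was lost without KO 1 or KO 2 (adjusted p = 0.0687 and 0.0751). The KO difference at 3 h, −0.33 ± 0.24 log2, did not pass (adjusted p = 0.276), although it did without the filter on low counts (adjusted p = 0.0168).

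Axl, the TAM receptor usually tied to inflammatory settings, rose the most of the 9 at every time. WT libraries held 23.3, 21.6, 17.3 and 17.5 CPM at 0 h, 57.3, 50.2, 45.8 and 43.6 CPM at 3 h, and 176, 155, 122 and 112 CPM at 12 h. No library after LPS fell within the 0 h range. The WT rise was 1.3 ± 0.15, 2.41 ± 0.14, 2.81 ± 0.14 and 2.49 ± 0.14 log2 at 3, 6, 12 and 24 h, 7.02-fold at 12 h (adjusted p = 3.66e-14). KO libraries held 17.3, 16.4, 17.9 and 18.4 CPM at 0 h and 134, 141, 158 and 155 CPM at 12 h. The KO rise was 1.44 ± 0.13, 2.55 ± 0.13, 3.05 ± 0.13 and 2.7 ± 0.13 log2, 8.31-fold at 12 h (adjusted p = 1.32e-16). From 12 h to 24 h Axl fell by 0.32 log2 in WT (adjusted p = 0.0449) and 0.36 log2 in KO (adjusted p = 0.0126), with overlapping ranges. The WT fall was lost without WT 2 or WT 3 and the KO fall without KO 3 (adjusted p = 0.298, 0.0843 and 0.13).

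The ratio of Axl to Mertk counts shifted toward Axl within 3 h and stayed shifted. In WT its mean was −2.85 ± 0.20 log2 at 0 h and −1.07 ± 0.44 at 3 h (SD, n = 4), a 3.45-fold shift, and it was 4.13-fold above 0 h at 12 h. In KO it went from −2.84 ± 0.23 to −1.04 ± 0.54 at 3 h, and at 24 h it was 3.92-fold above 0 h. The smallest shift was at 6 h, when Mertk was highest, with 2.88-fold in WT and 2.15-fold in KO.

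Spi1, which encodes PU.1, rose early and then levelled off. WT libraries held 104, 104, 99.0 and 112 CPM at 0 h, 172, 171, 177 and 169 CPM at 3 h, and 226, 240.3, 282 and 266 CPM at 6 h. These 3 times did not overlap. The WT rise was 0.71 ± 0.08, 1.27 ± 0.08, 1.22 ± 0.08 and 1.05 ± 0.08 log2, 2.41-fold at 6 h (adjusted p = 1.47e-13). KO libraries held 111, 107, 113 and 102 CPM at 0 h and 235, 268, 234 and 298 CPM at 6 h, a rise of 1.24 ± 0.11 log2 (adjusted p = 2.84e-10). Neither step after 6 h passed in either genotype (adjusted p from 0.0797 to 0.95).

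Maf, a large MAF factor of differentiated macrophages, went below, above and again below its starting level. WT libraries held 629, 604, 673 and 712 CPM at 0 h, 261, 261, 299 and 311 CPM at 3 h, and 794, 969, 1008 and 906 CPM at 6 h. They then held 414, 521, 413 and 435 CPM at 24 h, again below every 0 h value. Maf fell by 1.21 log2 at 3 h (2.32-fold, adjusted p = 1.74e-11), was 0.48 ± 0.09 above 0 h at 6 h (adjusted p = 4.02e-05), and was 0.56 lower at 24 h (a change of −0.56 ± 0.09, adjusted p = 6.6e-06). The rebound from 3 h to 6 h was 3.24-fold in WT and 3.77-fold in KO (adjusted p = 2.76e-13 and 8.88e-15).

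KO libraries traced the same course, with 641, 601, 574 and 583 CPM at 0 h, 269.5, 279.8, 229 and 260.2 CPM at 3 h, 947, 968, 909.6 and 1098 CPM at 6 h, and 406, 373, 434 and 396 CPM at 24 h. No 2 of these 4 KO ranges overlapped. The KO changes were −1.22 ± 0.08, 0.69 ± 0.08, 0.22 ± 0.08 and −0.58 ± 0.08 log2 at 3, 6, 12 and 24 h, all called. The 12 h values were the least firm: the WT call (0.26 ± 0.09, adjusted p = 0.0131) was lost without WT 2 (adjusted p = 0.0727), and the KO call (adjusted p = 0.0165) without the filter on low counts (adjusted p = 0.0794).

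Cebpa and Cebpb encode C/EBP factors that bind like sites, C/EBPα being tied to myeloid lineage choice and C/EBPβ to inflammatory activation. They moved in opposite directions, and their promoter windows are shown for that reason. Capitals mark GGGCGG and TATAAA, counted from the transcript start. The Cebpa window is chr7:35119043-35119342 and the Cebpb window chr2:167688665-167688964, both on the plus strand of GRCm38.p6 from RefSeq.
Cebpa: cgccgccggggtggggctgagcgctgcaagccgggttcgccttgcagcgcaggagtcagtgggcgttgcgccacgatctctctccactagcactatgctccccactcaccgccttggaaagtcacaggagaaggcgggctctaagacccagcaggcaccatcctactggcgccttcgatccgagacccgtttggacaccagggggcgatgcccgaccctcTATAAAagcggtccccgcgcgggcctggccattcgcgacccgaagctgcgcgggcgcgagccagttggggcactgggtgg
Cebpb: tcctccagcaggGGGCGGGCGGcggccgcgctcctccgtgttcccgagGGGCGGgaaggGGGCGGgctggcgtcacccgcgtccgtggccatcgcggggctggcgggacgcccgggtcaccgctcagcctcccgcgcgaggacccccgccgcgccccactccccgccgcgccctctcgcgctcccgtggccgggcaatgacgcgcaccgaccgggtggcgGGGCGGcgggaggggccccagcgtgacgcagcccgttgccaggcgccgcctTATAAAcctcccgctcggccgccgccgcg
The Cebpb window held 5 matches to GGGCGG, of which the first 2 overlap, and the Cebpa window held none. Both held TATAAA, at −30 in Cebpa and at 22 in Cebpb, letters that 13.6% of windows hold. No other letters of the set searched above were found in either. GC content was 67.3% in Cebpa and 80.7% in Cebpb, beside a median of 52.7% over all windows.

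Cebpa gave the largest change of the 9. WT libraries held 131, 123, 126 and 129.5 CPM at 0 h, 16.9, 16.8, 16.3 and 10.4 CPM at 3 h, and 8.77, 5.35, 5.49 and 4.57 CPM at 6 h. They then held 15.4, 13.6, 15.4 and 20.4 CPM at 12 h and 37.8, 20.1, 24.3 and 34.1 CPM at 24 h. Every later library lay below the 0 h range, and those of 12 h and 24 h lay above those of 6 h. The WT changes were −3.06 ± 0.17, −4.37 ± 0.20, −2.98 ± 0.17 and −2.14 ± 0.15 log2 at 3, 6, 12 and 24 h, that is 8.33, 20.7, 7.88 and 4.42-fold lower (highest adjusted p = 1.67e-11). At 6 h the levels rested on few tags, with 18 counts in the lowest WT library and 15 in the lowest KO library.

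KO libraries held 149.6, 128, 164 and 121 CPM of Cebpa at 0 h, 9.91, 25.1, 25.7 and 18.8 CPM at 3 h, 4.49, 6.03, 6.31 and 4.14 CPM at 6 h, and between 35.0 and 37.0 CPM at 24 h. The spread was wide at 3 h, where KO 1 was lowest, and narrow at 24 h. The KO changes were −2.82 ± 0.18, −4.77 ± 0.22, −3.22 ± 0.19 and −1.97 ± 0.17 log2. Each of the later steps passed in both genotypes: from 6 h to 12 h Cebpa rose by 1.39 ± 0.24 log2 in WT and 1.56 ± 0.26 in KO (adjusted p = 4.27e-05 and 3.65e-05). From 12 h to 24 h it rose by 0.83 ± 0.18 and 1.25 ± 0.19 (adjusted p = 8.56e-04 and 2.21e-05).

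Cebpb rose to a plateau. WT libraries held 97.6, 95.7, 108 and 99.0 CPM at 0 h, 250.1, 244, 224 and 216 CPM at 3 h, and 296, 369.7, 353 and 267 CPM at 6 h. Every library after LPS lay above the 0 h range. The WT rise was 1.22 ± 0.14, 1.68 ± 0.15, 1.73 ± 0.15 and 1.47 ± 0.14 log2, 3.31-fold at 12 h (adjusted p = 1.3e-09). KO libraries held 126, 101, 128 and 115 CPM at 0 h and 377, 315, 377 and 413 CPM at 6 h, and the KO rise was 1.15 ± 0.13, 1.64 ± 0.13, 1.64 ± 0.13 and 1.33 ± 0.13 log2. The steps after 6 h did not pass. In KO the step from 12 h to 24 h, −0.31 ± 0.13 (adjusted p = 0.0597), passed with RLE size factors, with DESeq2 and without the filter (adjusted p = 0.0482, 0.0438 and 0.0219).

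The ratio of Cebpb to Cebpa counts turned over within 3 h. Its mean in WT was −0.35 ± 0.09 log2 at 0 h, 3.97 ± 0.27 at 3 h, 5.77 ± 0.47 at 6 h, 4.36 ± 0.51 at 12 h and 3.29 ± 0.42 at 24 h (SD, n = 4). In KO it was −0.26 ± 0.13, 3.81 ± 0.71, 6.16 ± 0.43, 4.58 ± 0.28 and 3.03 ± 0.13. Against 0 h this is a shift of 69.2-fold in WT and 85.4-fold in KO at 6 h, and of 12.4-fold and 9.75-fold at 24 h. The WT and KO ranges overlapped at every time, for example 5.08 to 6.11 and 5.71 to 6.64 at 6 h.

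**Figure D3:**
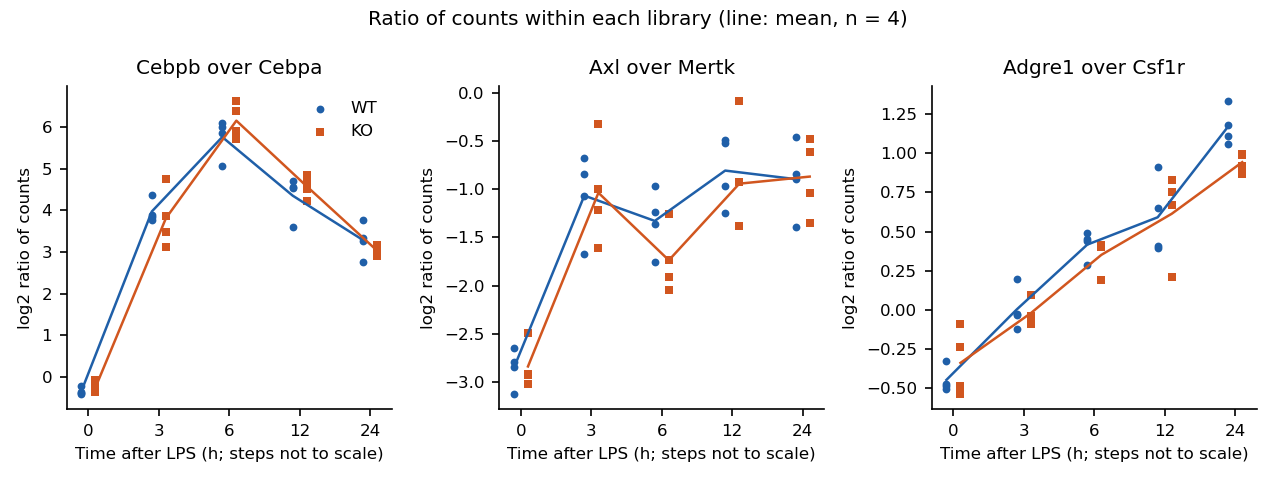
Log2 ratio of counts (vertical axes) of Cebpb to Cebpa, Axl to Mertk and Adgre1 to Csf1r in each library by hours after LPS (horizontal axes, not to scale), WT as circles and KO as squares, with lines through group means (n = 4). Cebpb over Cebpa peaks at 6 h (5.77 in WT, 6.16 in KO), whereas Adgre1 over Csf1r is highest at 24 h (1.17 and 0.94).

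Zeb2, a zinc finger repressor that keeps macrophage identity in tissues, moved to a new level by 3 h. WT libraries held 212, 222, 217 and 215 CPM at 0 h, 420.1, 389, 386 and 416 CPM at 3 h, and 391, 397, 395 and 400.2 CPM at 24 h. All later values lay above the 0 h range. The WT rise was 0.89 ± 0.07, 0.73 ± 0.07, 0.86 ± 0.07 and 0.87 ± 0.07 log2, 1.86-fold at 3 h (adjusted p = 3.05e-11). KO libraries held 203, 207, 195 and 186 CPM at 0 h, 405, 371, 378 and 370.0 CPM at 3 h, and 425, 393, 407 and 334 CPM at 24 h. The KO rise was 0.93 ± 0.09, 0.73 ± 0.09, 0.71 ± 0.09 and 0.98 ± 0.09 log2. After 3 h the WT steps did not pass, and in KO the step from 12 h to 24 h did (0.27 ± 0.09, adjusted p = 0.0177), but not without KO 1 or KO 2 (adjusted p = 0.113 and 0.0935).

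Between neighbouring times after LPS began, 7, 5 and 5 members were called in WT from 3 h to 6 h, 6 h to 12 h and 12 h to 24 h, beside 42.3%, 45.6% and 39.6% of all genes. In KO the counts were 6, 5 and 5, beside 40.6%, 44.8% and 36.9%. From lowest to highest mean, the order of times was the same in both genotypes for Mertk and Maf (3 h lowest, 6 h highest) and for Spi1 (0 h lowest, 6 h highest). Adgre1 ran in order of time, and Axl from 0 h to 12 h with 24 h between 6 h and 12 h. For Csf1r in WT all 4 neighbours in the order 6, 24, 3, 0 and 12 h overlapped, so no 2 adjacent levels stood apart.

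Across the 40 libraries, log2 CPM of Axl, Spi1 and Cebpb ran together (Pearson r = 0.93 for Axl with Spi1, 0.90 for Axl with Cebpb and 0.91 for Spi1 with Cebpb). Cebpa ran opposite to Cebpb (r = −0.83) and to Spi1 (r = −0.79). Csf1r stayed within ±0.23 of 0 with each of the other 8. These points share times, libraries and the change from 0 h, so r describes the course and carries no test.

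Among 9099 genes with a symbol and a mean of at least 5 CPM, the courses most like each member over the 40 libraries were as follows. Axl was closest to Mov10, Acsl1 and Lgals9 (r = 0.98 each). Adgre1 was closest to Rilpl2, Unc93b1 and Vmp1 (0.96 each), Spi1 to Phf11b, Rrbp1 and Pttg1 (0.96 each), and Cebpb to Mcl1, AW112010 and Cybb (0.96 each). Cebpa was closest to Med22 and Polh (0.96 each) and to Bcl2 (0.95), and Zeb2 to Nupr1 (0.95), Grk3 and Marf1 (0.93 each). Maf had Tifab (0.91), Tlr4 and Fam111a (0.87 each), and Mertk had Pacs2 (0.92), Stambp and Slc30a1 (0.90 each). Csf1r had the weakest nearest courses, Myh9 (0.73), Lima1 (0.68) and Sppl2b (0.65).

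Between genotypes, 0 of 9 members passed at any time by edgeR or by DESeq2. At 0, 3, 6, 12 and 24 h, edgeR called 0%, 0.689%, 1.01%, 0.0464% and 0.0809% of all genes tested. At an unadjusted p under 0.05 there were 1, 0, 1, 1 and 0 members, namely Cebpb at 0 h, Mertk at 6 h and Zeb2 at 12 h, beside 7.67%, 11.7%, 12.0%, 7.72% and 7.46% of all genes. A count of 1 in 9 is near those shares. KO minus WT differences of the 9 ran from −0.20 to 0.22 log2 at 0 h, from −0.13 to 0.39 at 3 h, from −0.26 to 0.33 at 6 h, from −0.28 to 0.27 at 12 h and from −0.15 to 0.31 at 24 h. A p that misses the threshold does not show equal levels, so the intervals follow. Leaving out the 2 male animals, an alternative chosen after seeing the data, also gave 0 of 9 at each time.

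The closest bounds were those of Csf1r and Spi1. For Csf1r the 95% intervals of KO minus WT over the 5 times lay between −0.23 and 0.28 log2, and for Spi1 between −0.31 and 0.29. Cebpa at 3 h (0.39, −0.21 to 0.99) and at 6 h (−0.26, −0.80 to 0.29) was measured least closely, with Mertk at 3 h (−0.04, −0.65 to 0.57).

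Mertk at 6 h ran from 282 to 376 CPM among KO libraries, beside 217 to 314 CPM among WT ones, and the ranges overlapped through KO 4. The difference was 0.33 ± 0.13 log2 (95% interval 0.05 to 0.62, edgeR adjusted p = 0.315). Without the filter on low counts it passed (adjusted p = 0.0056).

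Cebpb had a higher mean in KO at 5 of 5 times, by 0.22 ± 0.08 log2 at 0 h (118 ± 12.3 against 100.2 ± 5.66 CPM, SD, n = 4, adjusted p = 0.54), 0.16 ± 0.08 at 3 h, 0.19 ± 0.11 at 6 h, 0.14 ± 0.18 at 12 h and 0.08 ± 0.13 at 24 h. Averaged over the 5 times by limma it was 0.17 (95% interval 0.02 to 0.32), which did not pass (adjusted p = 0.203). Csf1r too had a higher mean in KO at 5 of 5 times, by 0.00012 to 0.13 log2. The times share replicate numbers, and the share of all genes that keep the same sign throughout was not counted. Such a run of signs, here or for Zeb2 below, is therefore not read as a result.

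Zeb2 had a lower mean in KO at 5 of 5 times, with differences of −0.14 ± 0.07 log2 at 0 h, −0.08 ± 0.07 at 3 h, −0.13 ± 0.08 at 6 h, −0.28 ± 0.10 at 12 h and −0.03 ± 0.08 at 24 h. At 0 h the 4 KO values (186 to 207 CPM) lay below the 4 WT values (212 to 222 CPM). The 0 h difference was not called (edgeR adjusted p = 0.647). Such a separation occurred for 1 of 9 members at 0 h and for 0 of 9 at each later time. Its share over all genes was not counted, so it is not read as a result about Zeb2. At 12 h KO held 341, 333, 359 and 277 CPM and WT 351, 433, 390.5 and 399 CPM. The averaged difference was −0.12 log2 (95% interval −0.20 to −0.04, limma adjusted p = 0.064), close to the threshold but not past it. In the averaged comparison 0 of 9 members and 4.86% of all genes were called, and 2 members, Cebpb and Zeb2, had an unadjusted p under 0.05, as did 19.2% of all genes, a share close to that of 2 in 9. Zeb2 passed in 3 alternatives: without WT 1 (adjusted p = 0.0314), without the filter (0.0168) and with edgeR treating the 40 libraries as independent (0.0138).

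**Figure D4:**
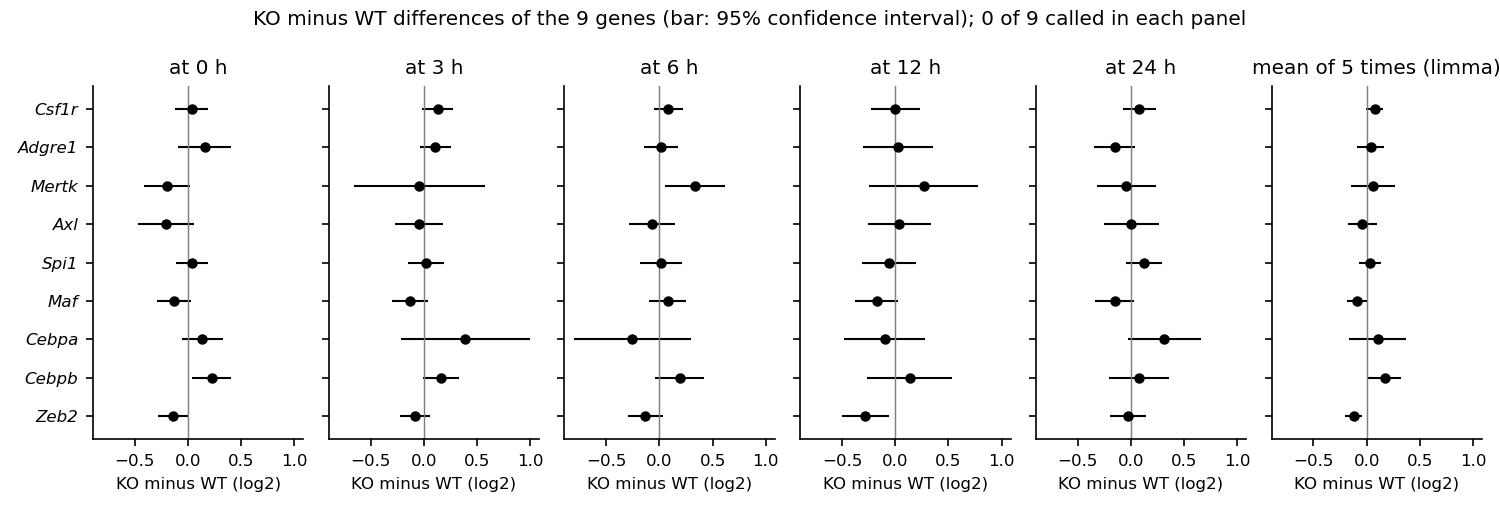
KO minus WT difference in log2 units (horizontal axes) of each of the 9 genes at 5 times by edgeR and averaged over the times by limma, with 95% confidence intervals. None of the 9 passed the test in any panel, and the widest intervals are those of Cebpa at 3 h (−0.21 to 0.99) and Mertk at 3 h (−0.65 to 0.57).

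The change from 0 h, with LPS and time in culture together, was compared between genotypes as an interaction. Both edgeR and DESeq2 called 0 of 9 members at 3, 6, 12 or 24 h. By edgeR, 0%, 0%, 0% and 0.00818% of all genes were called. The unadjusted p was under 0.05 for 0, 1, 0 and 0 members, beside 2.81%, 4.37%, 3.26% and 3.88% of all genes. The 1 was Mertk at 6 h, whose rise was 0.54 ± 0.18 log2 larger in KO (95% interval 0.17 to 0.91, adjusted p = 0.891), and which passed without the filter (adjusted p = 0.0479). For Adgre1 the rise by 24 h was 0.32 log2 smaller in KO, as a difference of −0.32 ± 0.16 (−0.64 to 0.01, adjusted p = 0.999838). For Spi1 the interaction intervals over the 4 times lay between −0.39 and 0.30 log2, and for Csf1r between −0.30 and 0.29.

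Genes that act with the members were counted from lists chosen for this account, against 0 h at 24 h in WT and then KO. Of all genes, 34.5% rose and 35.4% fell in WT at that time, and 32.8% and 33.0% in KO, and the counts below are descriptions beside these shares. The list of M-CSF receptor ligands and signalling also took in Csf2ra, Csf2rb and Csf3r, receptor genes for other colony-stimulating factors. Of its 15 measured genes, 10 rose and 3 fell in each genotype, with a median of 0.68 log2 in WT and 0.76 in KO. The kinase genes Src (4.14 ± 0.35 log2, from 0.225 to 4.49 CPM) and Pik3cd (1.48 ± 0.11) rose in WT, as did Csf3r, the G-CSF receptor (2.55 ± 0.14), which is also a neutrophil marker. Csf1, the gene of M-CSF, fell by 0.67 log2 (adjusted p = 0.00349), Inpp5d, a lipid phosphatase, by 0.58, and Plcg2, a phospholipase, by 0.49. The median over all genes was −0.02 in WT and −0.01 in KO.

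While Axl and Mertk were above their 0 h levels, most of the list of TAM ligands and dead cell uptake was not. Of 14 measured genes 2 rose and 9 fell in each genotype at 24 h, with a median of −0.90 log2 in WT and −1.01 in KO, beside 34.5% higher and 35.4% lower of all genes in WT. At earlier times in WT the list was more mixed, with 4 higher, 3 lower and a median of 0.20 log2 at 3 h, 4 higher, 5 lower and −0.05 at 6 h, and 2 higher, 8 lower and −0.27 at 12 h. Both TAM ligands fell in WT: Gas6 from 342 ± 26.7 to 49.2 ± 6.99 CPM (SD, n = 4, −2.80 ± 0.11 log2, adjusted p = 4.45e-17) and Pros1, which encodes protein S, from 89.8 ± 5.11 to 35.2 ± 2.49 CPM (−1.35 ± 0.09, adjusted p = 1.09e-12). The scavenger receptor gene Stab1 fell by 1.62 log2. The complement genes C1qa and C1qb rose by 0.86 ± 0.11 and 0.46 ± 0.12 log2. In this list Cd36, a scavenger receptor for oxidised lipids and apoptotic cells, was higher in KO at 3 h (0.42 ± 0.09, adjusted p = 0.041) and 6 h (1143 ± 89.7 against 791 ± 19.1 CPM, 0.52 ± 0.07, adjusted p = 0.00217). Averaged over times, Cd36 (0.44) and Mfge8, a bridging protein for dying cells (0.41), were higher in KO (limma adjusted p = 4.62e-07 and 7.21e-05). Between genotypes these were 1 of 14 measured genes at 3 h, 1 of 14 at 6 h and 2 of 14 averaged. Of all genes, 0.689%, 1.01% and 4.86% were called in those comparisons. No gene of the list was called at 0, 12 or 24 h.

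Of 20 measured other myeloid transcription factors, 7 rose and 11 fell in WT at 24 h (median −0.47 log2, beside 34.5% and 35.4% of all genes), and 5 rose and 11 fell in KO (median −0.57). Nr1h3, the liver X receptor alpha gene, rose by 2.77 ± 0.12 log2, Zeb1, the paralogue of Zeb2, by 1.76 ± 0.32, and Mitf by 1.59 ± 0.09. Bhlhe40, Pparg and Lyl1 fell by 1.32, 1.32 and 1.31 log2. Irf8, a partner of PU.1, was higher in KO at 6 h (399 ± 33.7 against 285 ± 36.3 CPM, 0.47 ± 0.09, adjusted p = 0.0177). Bhlhe41 was higher in KO averaged over times (0.36, limma adjusted p = 7.26e-04). These were 1 of 16 genes measured at 6 h and 1 of 20 averaged, beside 1.01% and 4.86% of all genes. Irf8 was not called at the other times or in the average.

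Of 8 measured genes of the C/EBP family and its partners, 4 rose and 4 fell in WT at 24 h (median 0.34 log2, beside 34.5% and 35.4% of all genes), and 3 rose and 4 fell in KO (median −0.19). Ddit3, which encodes the C/EBP partner CHOP, rose from 24.9 ± 1.95 to 175 ± 20.7 CPM (2.81 ± 0.14 log2), Batf by 2.89 ± 0.19 and Nfil3 by 2.66 ± 0.22. Trib1, an adaptor that promotes C/EBPα breakdown, fell from 47.2 ± 6.33 to 7.26 ± 2.38 CPM. Cebpd fell by 1.07 log2, unlike Cebpb. Cebpz, listed by its name, fell by 1.64 log2 and is not read as a C/EBP factor. Nfil3 was higher in KO at 3 h (30.6 ± 3.06 against 19.5 ± 3.77 CPM, 0.67 ± 0.13, adjusted p = 0.0231). It was 1 of 8 measured genes there, beside 0.689% of all genes. No gene of this list was called between genotypes at another time or averaged over times.

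Of 30 measured other macrophage surface and core genes, 12 rose and 12 fell in WT at 24 h (median 0.02 log2), near the 34.5% and 35.4% of all genes. In KO 11 of 29 rose and 10 fell (median 0.11). Fcgr1, the high-affinity IgG receptor gene, rose by 4.45 ± 0.10 log2 (27.8 ± 2.68 to 610.1 ± 13.6 CPM), Siglec1 by 2.92 ± 0.23 and Msr1 by 1.44 ± 0.09. Mrc1, the mannose receptor gene, fell from 878 ± 116 to 110.3 ± 24.5 CPM (−2.99 ± 0.15), Cx3cr1 by 1.59 and Selenop by 1.07 log2. Averaged over times, Glul was higher in KO (0.27) and Cx3cr1 (−0.74) and Tcn2 (−0.19) were lower (limma adjusted p = 4.47e-05, 0.019 and 0.0339). Tyrobp, the DAP12 adaptor gene of the M-CSF signalling list, was higher in KO by 0.18 log2 (adjusted p = 0.0182). The averaged calls were 1 higher and 2 lower of 30 surface and core genes, and 1 of 15 M-CSF signalling genes. Of all genes 4.86% were called in that comparison. No gene of these lists was called between genotypes at a single time. The counts between genotypes are small and are not read as results about the lists. 

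Some members overlap other genes, so tags could be shared if counting ignored strand, which is not given in the sources used here. Over the 40 libraries Tmem189, opposite Cebpb, held 23647 counts beside 48906 of Cebpb, Zeb2os, opposite Zeb2, 10391 beside 64115, and Hmgxb3, opposite Csf1r, 3670 beside 94648. Antisense genes opposite Mertk, Maf and Cebpa held 0, 6 and 0 counts.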

How the data were processed

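The values are expected counts of each gene in 40 libraries, as deposited by the authors, and were rounded to whole numbers here. Per the labels' protocols the libraries were made with a Lexogen QuantSeq 3′ FWD kit. The submitters' processing notes name the build GRCm39, RSEM 1.3.3 and UMI-tools 1.1.2, beside STAR 2.7.10a, cutadapt 3.7 and FastQC 0.11.9. The use of strand and molecular identifiers in counting is not given in the sources used here.

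Comparisons used edgeR 4.0.16 (TMM scaling, filterByExpr with a minimum count of 10, robust quasi-likelihood test, Benjamini-Hochberg adjustment over all genes tested, threshold 0.05) in R 4.3.3. Each KO against WT test used the 8 libraries of its time, each LPS test the 20 libraries of its genotype, and each interaction the 16 libraries of its times. The difference averaged over times used limma 3.58.1 (voom), with libraries of 1 number in a genotype as a random effect (consensus correlation 0.12), and DESeq2 1.42.0 was an alternative. Values after ± are SE for log2 changes and SD for CPM. Fitting was tested on simulated data. With 4 replicates per group, p-values measure the spread between these cultures.

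The members and lists were chosen with earlier results of these data known. Named list genes are up to 3 called genes per list and direction with a mean of at least 5 CPM, for LPS in WT at 24 h, and list genes called between genotypes. Promoter windows came from RefSeq on GRCm38.p6, another build than the counts, matched by symbol for 5 of 9 members.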

Additional observations from a re-analysis of the deposited data

Results flagged for a closer look

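In 2 of the 90 groups of 4 libraries (9 genes, 10 groups each) 1 library stood far from the other 3 by Dixon's test: the gap to the nearest other library was 0.867 of the group's range for Mertk and 0.906 for Cebpa. Chance gives such a gap in about 1 in 20 groups, a larger share than 2 in 90, so these flags are not read as a result. Both fell in WT 4 at 3 h, which is from a male animal. Mertk was at 139 CPM there, beside 89.8 to 96.4 CPM in the other 3 WT libraries. Cebpa was at 10.4 CPM, beside 16.3 to 16.9 CPM. Whether this library differed beyond chance, and why, was not tested.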

How the results depend on the processing

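The alternatives were RLE size factors, no filter on low counts, DESeq2, the replicate block, each replicate left out, 1 fit of all 40 libraries for KO against WT at each time and, for the averaged difference, edgeR with no random effect. Over those with all replicates and the omission of the 2 male animals, chosen after seeing the data, single-gene values gave 950 outcomes with the same direction and call, 18 newly called, 8 no longer called and 14 of opposite sign, all 14 for differences that were not called. Leaving out 1 replicate gave 1103, 7, 33 and 81. Cebpa at 6 h, with as few as 15 counts in a library, is limited by depth. RLE factors moved all genes by 0.02 to 0.06 log2 against 0 h. The cause of each change below was not tested.

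Without the filter, 1 member was called between genotypes at 6 h (Mertk), 1 averaged over times (Zeb2) and 1 in the interaction at 6 h (Mertk), each beside 0 with it. Treating the 40 libraries as independent in edgeR also gave 1 averaged over times (Zeb2), and leaving out 1 replicate gave 0 to 1, the 1 without WT 1. For the step from 12 h to 24 h, leaving out 1 replicate gave 3 to 6 members in KO (3 without KO 1 and without KO 3, 6 without KO 4) and 3 to 5 in WT (3 without WT 2 and without WT 3), beside 5 in each.

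Without the male animals the sign turned for KO minus WT at 12 h in Axl (−0.088) and Csf1r (−0.045), at 24 h in Mertk (0.081), and for the interaction in Cebpb at 3 h (0.037) and Spi1 at 6 h (0.046). With RLE factors and with DESeq2 it turned for the step from 12 h to 24 h in Spi1 in KO (−0.011 and −0.011) and Zeb2 in WT (−0.0062 and −0.0061), and for the interaction of Maf at 3 h (−0.0037 and −0.0042). Without the filter it turned for Cebpb from 6 h to 12 h in KO (0.0023) and the interaction of Zeb2 at 6 h (−0.0024).

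With 1 replicate left out, KO minus WT ran between −0.0062 and 0.058 for Csf1r at 0 h. At 3 h it ran between −0.11 and 0.027 for Axl, −0.18 and 0.12 for Mertk, and −0.018 and 0.10 for Spi1. At 6 h the range lay between −0.029 and 0.069 for Adgre1, −0.14 and 0.0063 for Axl, −0.37 and 0.0022 for Cebpa, and −0.063 and 0.070 for Spi1. At 12 h it lay between −0.095 and 0.17 for Adgre1, −0.058 and 0.16 for Axl, −0.20 and 0.026 for Cebpa, −0.017 and 0.24 for Cebpb, −0.069 and 0.067 for Csf1r, and −0.16 and 0.0092 for Spi1. At 24 h it lay between −0.11 and 0.091 for Axl, −0.0012 and 0.23 for Cebpb, −0.11 and 0.093 for Mertk, and −0.073 and 0.043 for Zeb2. Averaged over times, it lay between −0.11 and 0.043 for Axl and −0.032 and 0.20 for Mertk.

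In the same fits the KO change ran between −0.017 and 0.052 for Csf1r at 3 h, −0.087 and 0.077 for Cebpb and −0.085 and 0.083 for Zeb2 from 6 h to 12 h, and −0.054 and 0.11 for Spi1 from 12 h to 24 h. The WT change from 6 h to 12 h ran between −0.085 and 0.15 for Cebpb and −0.11 and 0.051 for Spi1, and from 12 h to 24 h between −0.035 and 0.068 for Zeb2. The interaction at 3 h ran between −0.12 and 0.045 for Adgre1, −0.15 and 0.069 for Cebpb, −0.021 and 0.054 for Maf, and −0.079 and 0.071 for Spi1, and at 6 h between −0.097 and 0.068 for Cebpb, −0.12 and 0.065 for Spi1, and −0.040 and 0.059 for Zeb2. The interaction at 12 h ran between −0.32 and 0.016 for Adgre1, −0.25 and 0.031 for Cebpb, −0.092 and 0.028 for Csf1r, and −0.13 and 0.067 for Maf, and at 24 h between −0.24 and 0.014 for Cebpb, −0.010 and 0.11 for Csf1r, and −0.087 and 0.095 for Maf.

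The labels do not say that a replicate number marks an animal, and neither the LPS tests nor the interaction tests used the number as a block. If it does mark an animal, those tests treated libraries of the same animal as independent. Deviations of KO and WT libraries with the same number and time correlated above 0.1 in 1 of 20 pairs (−0.23 to 0.13), and those of 2 times in 23 of 40 pairs in WT and 24 of 40 in KO. Within a genotype the best match of a library at another time was its own number in 69 of 80 cases in WT and 62 of 80 in KO (at all 4 other times for 14 of 20 libraries in WT and 7 of 20 in KO), and low Xist followed the number through the 5 times, which are hints from the data that numbers follow animals. With the number as a block, the edgeR adjusted p passed for Mertk in KO at 3 h (0.0184) and from 12 h to 24 h (0.00395), Cebpb in KO from 12 h to 24 h (0.021), and Zeb2 from 3 h to 6 h (0.0313 in WT, 0.0396 in KO). The block turned the sign of KO minus WT for Axl at 24 h (−0.0064) and moved no count of called members by over 1.5 times.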
